A study of Homo sapiens with 6 samples.

Results

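The NEDD4 family ubiquitin ligases were followed in K562 cells after knockdown (KD) of PCBP1. The family has 9 genes (HECW1, HECW2, NEDD4, NEDD4L, ITCH, WWP1, WWP2, SMURF1 and SMURF2), and GENCODE release 44 assigns 164 of the 251612 matched transcripts to them. All 9 were among the 28848 genes that entered the gene-level fit. The family was chosen by the rise of HECW2 in shPCBP1, so the HECW2 values are given as a description with no test. The other 8 genes were included for their family membership. Earlier results of these data were known when members and lists were chosen.

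K562 is an established human line from a chronic myelogenous leukaemia. The cells received lentivirus carrying a pLKO.1 hairpin, directed against luciferase in the control group (shCtrl) or against PCBP1 in the knockdown group (shPCBP1). Both groups were exposed to polybrene and selected with puromycin, and 3 poly-A RNA libraries were made from each. A single hairpin per target was used in a transduced pool of cells. The labels do not say whether the replicates came from separate transductions, so p-values measure the spread between these libraries, which may be technical.

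Ligases of this family carry a C2 domain that binds membranes, WW domains that recognise short proline-rich motifs such as PPxY, and a C-terminal HECT domain. The HECT domain takes ubiquitin from an E2 enzyme onto its own cysteine before passing it to the substrate, unlike RING ligases, which do not form this intermediate. The family is known for control of membrane proteins, TGF-beta signalling, Hippo signalling and p53-family proteins. PCBP1 is an RNA-binding protein with a preference for C-rich sequence, and it also carries iron.

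PCBP1 itself fell to 18.1% of its control level, from between 37799 and 40566 normalized counts in shCtrl to between 6625 and 7277 in shPCBP1. Normalized counts are estimated reads per gene divided by a library size factor, and libraries held between 67066747 and 140522444 estimated reads. Erythroid markers of K562 were all present, with 8 of 8 averaging over 1 TPM, a length-scaled abundance, and a summed level of 15848 to 19036 TPM in shCtrl and 18728 to 19543 TPM in shPCBP1. Summed over their lists, 4 lymphoid markers came to 2.64 to 3.28 TPM in shCtrl and 1.41 to 1.84 TPM in shPCBP1, 3 monocyte markers to 0.227 to 0.409 and 0.418 to 0.481, 4 neuronal markers to 0.864 to 1.03 and 0.644 to 1.23, and 3 epithelial markers, nearly all EPCAM, to 36.7 to 38.1 and 26.7 to 36.4. Lymphoid, monocyte and epithelial sums did not overlap between groups, and their part in the results was not tested. No marker was at 0 in all 6 libraries.

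On GRCh38, HECW2 lies on chromosome 2 (196189099 to 196593684, minus strand), HECW1 on chromosome 7 (43112629 to 43566001, plus), SMURF1 also on chromosome 7 (99027440 to 99144108, minus) and WWP1 on chromosome 8 (86342547 to 86478420, plus). NEDD4 lies on chromosome 15 (55826922 to 55993660, minus), WWP2 on chromosome 16 (69762328 to 69941741, plus), SMURF2 on chromosome 17 (64542282 to 64662307, minus), NEDD4L on chromosome 18 (58044226 to 58401540, plus) and ITCH on chromosome 20 (34363235 to 34511773, plus). The 9 genes are unlinked apart from the pair on chromosome 7, whose members are far apart on that chromosome.

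HECW2 (ENSG00000138411) encodes a ligase reported to act on p73, AMOTL1, PCNA and lamin B1. It had 119, 104 and 124 normalized counts in the shCtrl libraries and 516, 296 and 228 in the shPCBP1 libraries, each in the order of replicates 1, 2 and 3. Every shPCBP1 library was above every shCtrl library, but the KD libraries were spread widely, with 346.7 ± 151 against 115.7 ± 10.2 (SD, n = 3). The log2 fold change was 1.58 (SE 0.264), the 6th largest of 11624 protein-coding genes with a mean of at least 100. The family was chosen for this rise, so the rank is a description only. Without shPCBP1 replicate 1, the highest library, the log2 fold change was 1.18. When the changing length of the expressed transcripts was taken into account with an offset, it was 1.03. In a bulk library, more RNA in every cell and more cells that express the gene cannot be told apart.

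These are low counts. HECW2 collected 162, 96 and 189 estimated reads in shCtrl and 459, 249 and 165 in shPCBP1, so the value of shPCBP1 replicate 3 before scaling was below that of shCtrl replicate 3, though in a shallower library. Per unit length HECW2 reached 0.503, 0.245 and 0.374 TPM in shCtrl and 1.02, 0.523 and 0.700 TPM in shPCBP1. The highest control and the lowest KD library were nearly level on this scale.

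The rise was divided unevenly over HECW2 transcripts, of which 17 are annotated and 2 had counts in every library. HECW2-212, the MANE transcript (the reference isoform for the gene, 12006 nt), had 17.6, 9.8 and 20.2 normalized counts in shCtrl and 119.0, 60.1 and 69.9 in shPCBP1. HECW2-215, annotated as a target of nonsense-mediated decay (NMD), the pathway that degrades transcripts with an early stop codon, had 35.7, 27.4 and 3.0 normalized counts in shCtrl and 107.7, 116.3 and 112.6 in shPCBP1. Both transcripts were higher in every KD library than in every control library. A retained-intron fragment of 552 nt, HECW2-217, held 23.9% of the TPM of the gene on at most 10.0 estimated reads in a library.

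The shorter coding transcripts behaved differently. HECW2-208 was at 0 in shCtrl replicates 1 and 2 and had 73.6 normalized counts in replicate 3, against 113.5, 91.8 and 17.4 in shPCBP1. HECW2-209 had 55.1, 60.3 and 0 in shCtrl and 136.6, 0 and 0 in shPCBP1. In the controls each library thus assigned its reads to 1 of the pair and none to the other. HECW2-208 shares 97.6% of its 31-base words with HECW2-209 and 98.8% with HECW2-212, and HECW2-215 shares 93.0% with the other 3. The division of reads among 208, 209 and 215 thus rests on few positions. HECW2-212 shares 56.4% with the other 3 and so has more sequence that sets it apart from them. Summed over 208, 209 and 212 the counts were 72.7, 70.1 and 93.7 in shCtrl and 369.0, 152.0 and 87.3 in shPCBP1, and shPCBP1 replicate 3 fell within the control range. Over the annotated protein-coding transcripts as a whole the log2 fold change was 1.33 (SE 0.437). The stacked bars of HECW2 counts show this split.

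**Figure D1:**
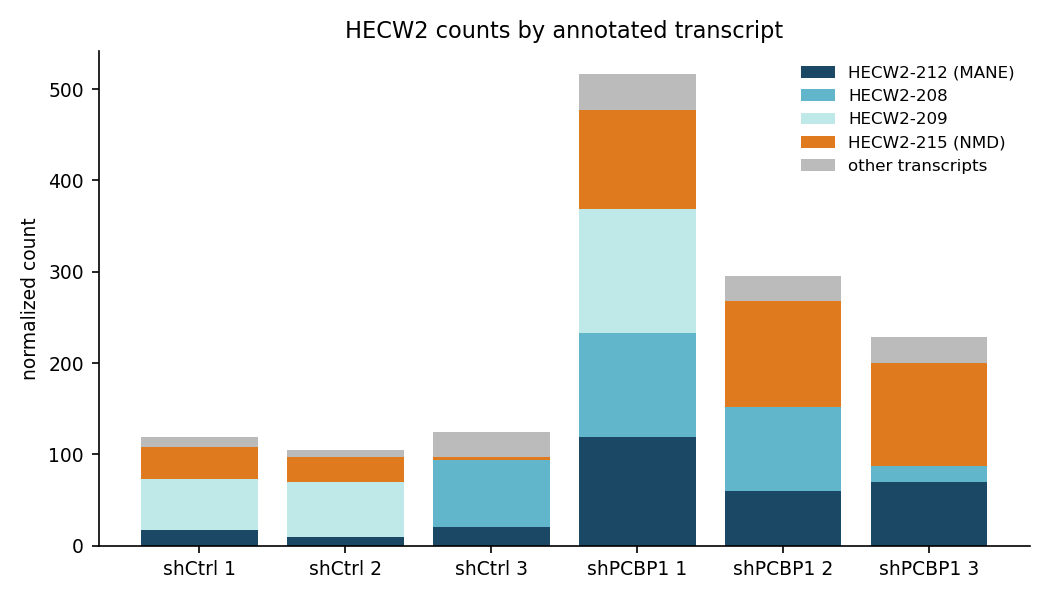
Normalized counts (y axis) of HECW2 in each of the 6 libraries (x axis), divided by annotated transcript. HECW2-212 and the NMD transcript HECW2-215 were higher in all 3 shPCBP1 libraries. Each control library held counts of 208 or of 209 but not of both, while shPCBP1 replicate 1 held both. The total was highest in shPCBP1 replicate 1.

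PCBP1 binds runs of C, so the runs of 5 or more C in HECW2-212 are shown, each within 25 bases of the transcript strand with the run in capitals. Of the 5 runs, 4 lie in the coding sequence (exons 4, 9, 11 and 13) and 1 in the 3′ UTR (exon 29). They were found in the RNA sense only, in GENCODE release 44 transcripts on GRCh38, minus strand.
HECW2 exon 4, chr2:196334444-196334468: cgagccacgaCCCCCtgcatcaccg
HECW2 exon 9, chr2:196319734-196319758: gccgatggaaCCCCCaagcattcat
HECW2 exon 11, chr2:196307985-196308009: accgacagctCCCCCagccccgcag
HECW2 exon 13, chr2:196306529-196306553: ttacagtctCCCCCCgtgaagttcc
HECW2 exon 29, chr2:196200029-196200053: tttcgtatttCCCCCactgcttttt
Such runs are common. Among 646 MANE transcripts within 20% of this length, 98.3% held at least 1 and the median was 7 runs, against 5 in HECW2. Counting CCCC with overlaps, HECW2-212 had 2.08 per kilobase, where the median of 19006 MANE transcripts was 4.49, and 22.6% of them had fewer. Among the 646 of like length the median was lower, at 3.31 per kilobase.

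The coding genes next to HECW2 on either side did not pass the test. STK17B, the nearest coding gene past its 3′ end (12.6 kb away), had 2033, 2133 and 2187 normalized counts in shCtrl and 1986, 2067 and 2238 in shPCBP1, a log2 fold change of -0.02 (SE 0.0727, adjusted p 0.907 by DESeq2). Beyond it DNAH7, a dynein heavy chain, had a mean of 35.3 normalized counts, for which DESeq2 gave no adjusted p, with a log2 fold change of -0.22 (SE 0.473). Past the 5′ end CCDC150 (45.9 kb away) had a log2 fold change of 0.04 (SE 0.110, adjusted p 0.828 by DESeq2), and GTF3C3, a subunit of the RNA polymerase III factor TFIIIC, one of 0.01 (SE 0.0472, adjusted p 0.877).

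The antisense gene inside HECW2, HECW2-AS1, had 455, 548 and 538 normalized counts in shCtrl and 489, 561 and 508 in shPCBP1, with a log2 fold change of 0.02 (SE 0.136, adjusted p 0.944 by DESeq2). Its groups overlapped. HECW2-AS1 and HECW2 are read from opposite strands, and the strand setting of the quantification is not given in the sources used here, so reads of the pair may not be separable where their exons overlap. Of 15 coding genes within 1 Mb of HECW2, 12 received an adjusted p and 3 passed it at 0.05 (25%, against 31.2% of all 17095 genes tested). SLC39A10, a zinc transporter, rose by 0.15 on the log2 scale (adjusted p 0.00923), the readthrough gene HSPE1-MOB4, which shares exons with its neighbours, rose by 0.87 (adjusted p 0.0374), and HSPD1, a mitochondrial chaperonin, fell by 0.13 (adjusted p 0.00420). None passed all thresholds. The count of 3 fell to 1 with length offsets, and also without shPCBP1 replicate 2.

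Over the 6 libraries, the coding genes whose log2 normalized counts followed HECW2 most closely were STAG2 (Pearson r = 0.998), NCOA1 (r = 0.996) and RBM28 (r = 0.996). These were chosen as the highest of the genes with a mean of at least 100, and the 6 points fall into 2 groups and share library depth. STAG2, a cohesin subunit, had 19105, 19041 and 19187 normalized counts in shCtrl and 21612, 20714 and 20262 in shPCBP1. As in HECW2, shPCBP1 replicate 1 was highest and replicate 3 lowest of the KD libraries, but the change in STAG2 was far smaller, at 0.13 on the log2 scale.

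HECW1, the closest relative of HECW2 in the family and a gene known from neurons, was barely detected. It collected 21, 15 and 3 estimated reads in shCtrl and 9, 5 and 10 in shPCBP1. Its normalized counts were 15.4, 16.3 and 1.97 in shCtrl and 10.1, 5.94 and 13.8 in shPCBP1, the groups overlapped, and DESeq2 gave no adjusted p. The log2 fold change was -0.16 (SE 0.960), and a change of any moderate size was not detectable at this depth. A difference between the paralogs was not tested.

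NEDD4, the founding member, which ubiquitinates growth factor receptors, was lower in shPCBP1. It had 4190, 3919 and 4338 normalized counts in shCtrl and 3328, 3698 and 3331 in shPCBP1, without overlap. This was a log2 fold change of -0.27 (SE 0.0631, adjusted p 0.000203 by DESeq2). With length offsets it was -0.07 (adjusted p 0.449), so NEDD4 no longer had an adjusted p under 0.05.

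The gene total of NEDD4 mixed 2 quite different transcripts. The MANE transcript NEDD4-202 had 4.69, 4.58 and 4.82 TPM in shCtrl and 3.27, 3.43 and 3.25 TPM in shPCBP1, well separated. The short transcript NEDD4-207 (965 nt, with no coding sequence defined) had 37.4, 33.9 and 37.9 TPM in shCtrl and 32.5, 38.7 and 34.5 TPM in shPCBP1, and the groups overlapped. It held 84.4% of the TPM of the gene. Over protein-coding transcripts alone, NEDD4 had 2094, 2041 and 2196 normalized counts in shCtrl and 1408, 1453 and 1395 in shPCBP1, a log2 fold change of -0.57 (SE 0.0757, adjusted p 1.21e-12 by DESeq2). Coding NEDD4 in shPCBP1 was at 67.2% of its control level.

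The last exon of NEDD4-207, 793 of its 965 bases, is made of sequence found elsewhere in the transcriptome. Of the 31-base words that start in it, 92.8% occur in transcripts of other genes, against 1.2% of those that start in the first exons. In all, 161 other genes share at least 1 word with the transcript. Among these genes BLOC1S6 holds the most, 538 of the 935 words of NEDD4-207. BLOC1S6 had a log2 fold change of 0.00326 (SE 0.0393, adjusted p 0.966 by DESeq2). No 31-base word of NEDD4-202 occurs in another gene. The TPM of NEDD4-207 is uncertain because of the shared exon.

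NEDD4L, the ligase that removes the epithelial sodium channel from the cell surface, was also lower. It had 3979, 3989 and 4039 normalized counts in shCtrl and 3404, 3494 and 3497 in shPCBP1, a narrow spread and no overlap. The log2 fold change was -0.21 (SE 0.0523, adjusted p 0.000488 by DESeq2). It was -0.16 over protein-coding transcripts (adjusted p 0.0289) and -0.43 with length offsets (adjusted p 0.000164).

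NEDD4L has 62 annotated transcripts, of which 6 held at least 5% of the gene's TPM. The most abundant, NEDD4L-214, had 4.25, 5.26 and 5.49 TPM in shCtrl and 6.08, 5.63 and 4.19 TPM in shPCBP1, and so did not follow the gene total. The short first-exon transcript NEDD4L-237 (728 nt) had 3.28, 2.62 and 3.40 TPM in shCtrl and 1.58, 1.73 and 1.65 TPM in shPCBP1, without overlap. The MANE transcript NEDD4L-205 had 1.23, 1.39 and 0.830 TPM in shCtrl and 1.21, 1.08 and 1.01 TPM in shPCBP1, and its groups overlapped.

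ITCH, which acts on JUNB, p63 and p73 and is needed for immune tolerance, showed no detectable change. It had 6665, 7051 and 6501 normalized counts in shCtrl and 6780, 6759 and 6924 in shPCBP1, with a log2 fold change of 0.02 (SE 0.0471, adjusted p 0.824 by DESeq2). The sign turned with length offsets (-0.01) and over protein-coding transcripts (-0.01). An NMD transcript, ITCH-203, held the largest share of its TPM, at 32.5% ± 3.31 in shCtrl and 34.6% ± 3.84 in shPCBP1 (SD, n = 3). ITCH-205 had 2.90, 0.473 and 3.17 TPM in shCtrl and 2.71, 2.83 and 3.17 TPM in shPCBP1, the low value being that of shCtrl replicate 2. In that library ITCH-201, which ends at the same base, had 2.14 TPM, and it was at 0 in every other library. The MANE transcript ITCH-202 held 0.307% of the TPM of the gene.

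A coding gene with no symbol, ENSG00000289720, overlaps ITCH on the same strand and holds 2748 of the 5283 31-base words of ITCH-203. It was looked up after the ITCH values were seen. It had 196, 141 and 431 normalized counts in shCtrl and 908, 528 and 498 in shPCBP1, all KD libraries being higher. Its log2 fold change was 1.33 (SE 0.549), with an adjusted p of 0.0492 by DESeq2, just under the threshold. The counts of ITCH and of this gene are uncertain in so far as the software could divide their shared reads either way.

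WWP1, a ligase of KLF5 and p63, was the member with the clearest rise among those that did not guide the choice. It had 1876, 1799 and 1859 normalized counts in shCtrl and 2488, 2644 and 2592 in shPCBP1. The groups were far apart relative to their spread, with 1844 ± 40.6 and 2575 ± 79.2 (SD, n = 3), a 1.40-fold difference. The log2 fold change was 0.48 (SE 0.0660, adjusted p 1.28e-11 by DESeq2).

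Per unit length the difference was smaller, with 7.32, 7.94 and 8.09 TPM in shCtrl and 8.93, 9.37 and 10.1 TPM in shPCBP1 summed over transcripts, and a log2 fold change of 0.30 with length offsets (adjusted p 0.00154 by DESeq2). These groups did not overlap. The MANE transcript WWP1-202 had 3.02, 2.76 and 3.02 TPM in shCtrl and 3.89, 4.29 and 4.37 TPM in shPCBP1, and WWP1-201 had 2.84, 3.05 and 2.59 against 4.03, 4.28 and 3.88 TPM. WWP1-207, a fragment of 513 nt, went the other way, at 1.06, 0.671 and 1.39 against 0.717, 0.410 and 0.637 TPM, with the groups overlapping. The processed pseudogene WWP1P1 holds 808 of the 4847 31-base words of WWP1-202, but it was listed at 1 read in shCtrl replicate 1 and at 0 in the other 5 libraries.

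WWP2, which acts on the pluripotency factor OCT4, was higher in counts but not in TPM. It had 4641, 4872 and 4765 normalized counts in shCtrl and 5549, 5323 and 5161 in shPCBP1, without overlap. The log2 fold change was 0.17 (SE 0.0508, adjusted p 0.00470 by DESeq2). With length offsets it was -0.06 (adjusted p 0.478), so the direction turned. Summed TPM was 18.8, 18.9 and 18.4 in shCtrl and 17.1, 18.3 and 17.7 in shPCBP1.

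WWP2 had 3 transcripts with at least 5% of its TPM. The full-length MANE transcript WWP2-202 (4487 nt) had 9.71, 11.1 and 10.9 TPM in shCtrl and 12.6, 12.3 and 12.4 TPM in shPCBP1. The share of WWP2-202 in the gene was 51.6%, 58.9% and 59.1% in shCtrl and 73.4%, 67.6% and 70.3% in shPCBP1. The short 5′ transcript WWP2-204 (574 nt) held 12.1%, 10.6% and 11.7% of the gene in the shCtrl libraries and 5.24%, 7.28% and 3.55% in the shPCBP1 libraries. Neither share passed the adjusted test (limma adjusted p 0.201 and 0.184), although neither overlapped between the groups, as was so for 19.8% of all transcripts tested. Over protein-coding transcripts alone the log2 fold change in counts was 0.19 (SE 0.0560, adjusted p 0.00315 by DESeq2).

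**Figure D2:**
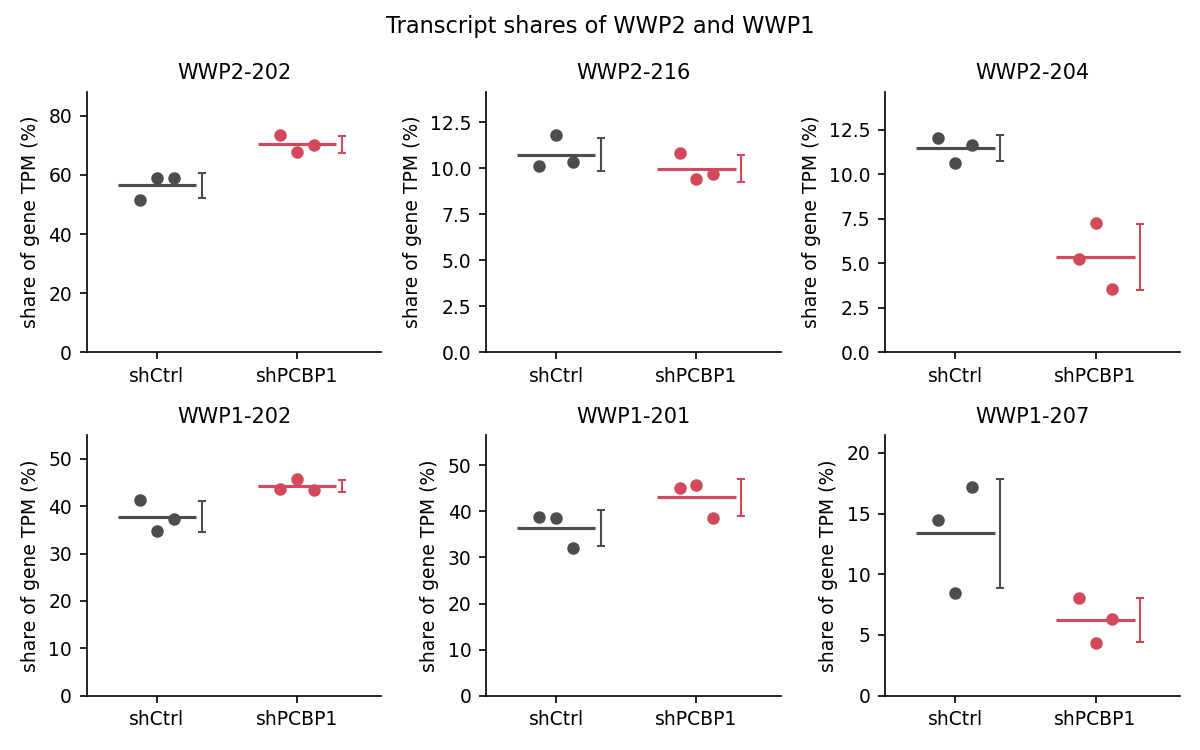
Share of gene TPM in percent (y axis) of 3 WWP2 and 3 WWP1 transcripts by group (x axis). Points are libraries, lines are means and bars are SD (n = 3). WWP2-202 averaged 56.5% ± 4.26 in shCtrl and 70.4% ± 2.89 in shPCBP1 and WWP2-204 was lower in all 3 shPCBP1 libraries, neither passing the adjusted test.

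WWP2 is also the member with the densest C runs. Its MANE transcript held 12 runs of 5 or more C and 12.26 CCCC per kilobase, and 88.1% of MANE transcripts had fewer per kilobase. Of the 12 runs, 8 are in the 3′ UTR and the 4 in coding exons are shown as for HECW2, on the plus strand.
WWP2 exon 6, chr16:69842077-69842101: cggcaccagCCCCCCagcacaaact
WWP2 exon 8, chr16:69888218-69888242: gctgcccaggCCCCCgacgctctgc
WWP2 exon 11, chr16:69925455-69925479: atcccctgggCCCCCtccctcctgg
WWP2 exon 13, chr16:69930142-69930166: accagctctgCCCCCaggatgggag
At the other end, NEDD4-202 held no such run and 0.70 CCCC per kilobase, which only 5.0% of MANE transcripts undercut, and WWP1-202 held 1 run and 1.03 per kilobase. HECW1 (6.03), SMURF1 (5.82), SMURF2 (4.65), NEDD4L (4.05) and ITCH (2.52) lay between. A match to these letters is a description of the transcript and not a binding site.

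SMURF1 and SMURF2, the ligases of SMAD proteins and TGF-beta receptors, did not pass. SMURF1 had 4706, 4677 and 4863 normalized counts in shCtrl and 5074, 4791 and 4777 in shPCBP1, overlapping groups with a log2 fold change of 0.04 (SE 0.0508, adjusted p 0.618 by DESeq2). SMURF2 had 1849, 1943 and 1923 in shCtrl and 1727, 1763 and 1745 in shPCBP1. The groups did not overlap, yet the log2 fold change of -0.13 (SE 0.0703) had an adjusted p of 0.170. SMURF1-202 held 92.2% of the TPM of its gene. SMURF2 was split between the coding transcripts SMURF2-207 (47.8%) and SMURF2-201 (27.4%) and the NMD transcript SMURF2-203 (21.5%), whose shares all overlapped between groups. SMURF1 lies opposite TRRAP and SMURF2 opposite CEP95, so antisense reads may add to either total.

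**Figure D3:**
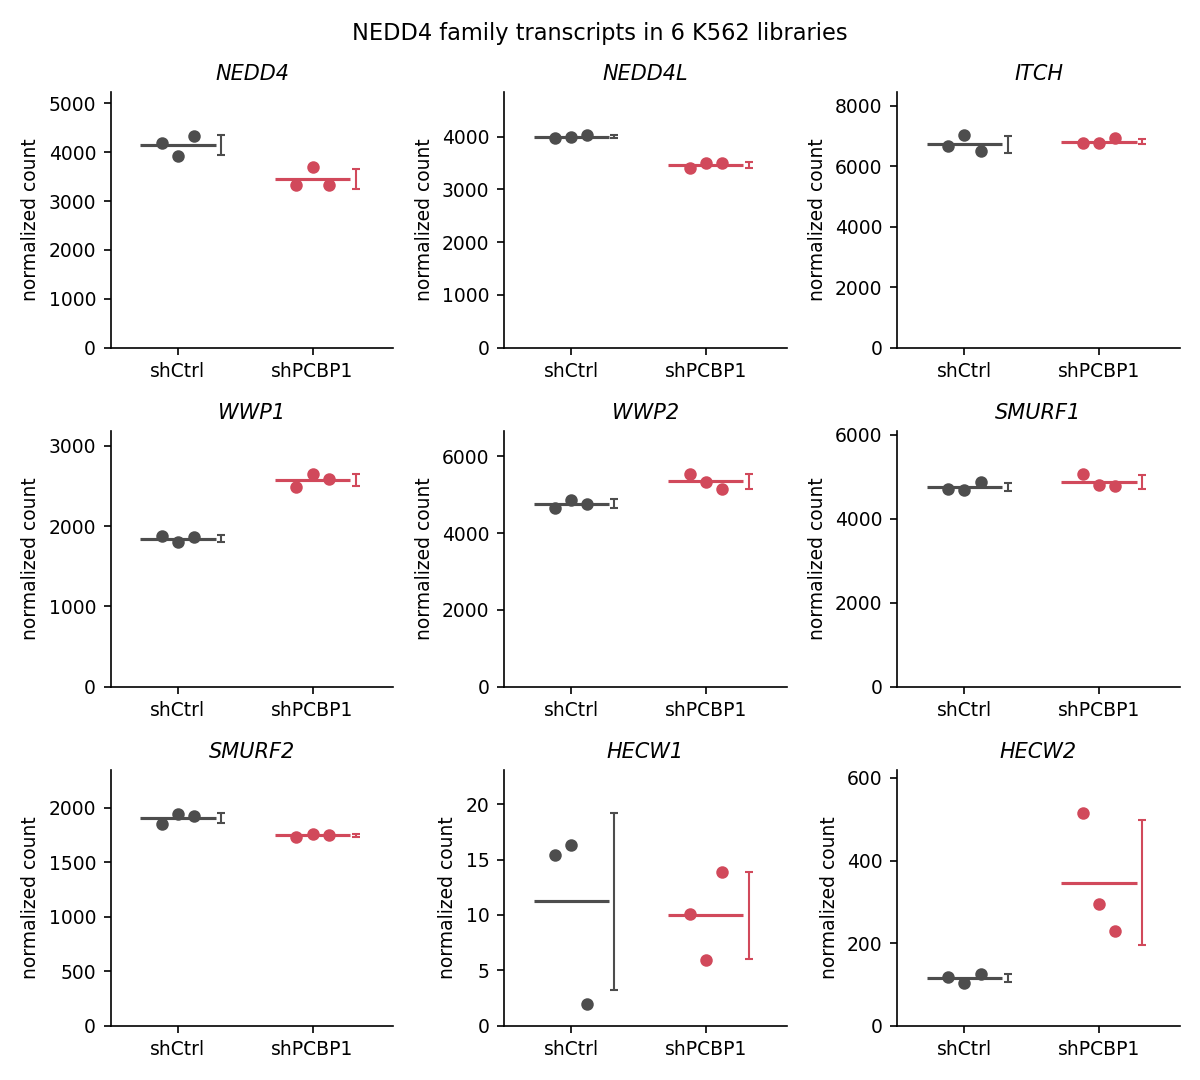
Normalized counts (y axis, from 0) of each of the 9 family members by group (x axis). Points are libraries, horizontal lines are means and bars are SD (n = 3). HECW2, whose rise chose the family, WWP1 and WWP2 lay above their controls in all 3 shPCBP1 libraries, and NEDD4, NEDD4L and SMURF2 below them. How many of all genes separate in this way was not counted, so no result is read from it. SMURF2 did not pass the adjusted test, and HECW1 stayed under 20 counts throughout.

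Of the 8 members other than HECW2, 7 received an adjusted p and 4 passed it at 0.05. WWP1 and WWP2 were higher (WWP2 not with length offsets), and NEDD4 and NEDD4L lower. Among all genes tested 31.2% passed, 17.7% as higher and 13.5% as lower in shPCBP1, and the median log2 fold change was 0.00187. None of the 8 passed all thresholds (an adjusted p under 0.05, more than 1 in either direction on the log2 scale and a mean over 10), as 1.37% of all genes did. Between the 14 ways of fitting, WWP1 and NEDD4L passed under all, while NEDD4 and WWP2 did not pass with length offsets.

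**Figure D4:**
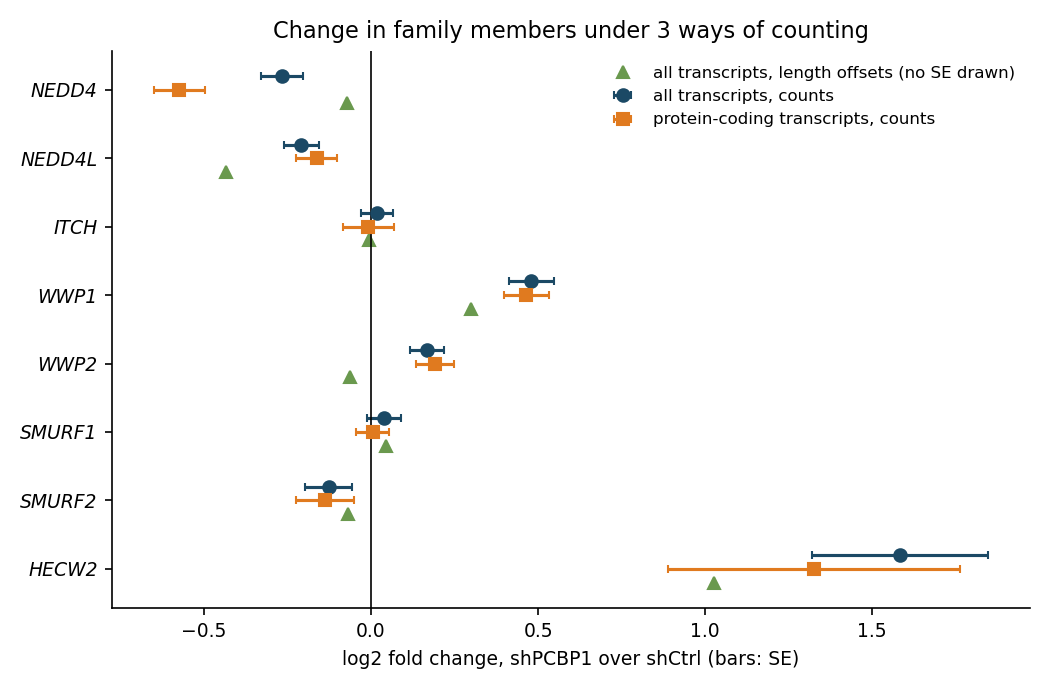
Log2 fold change, shPCBP1 over shCtrl (x axis), of 8 members (y axis) from counts over all transcripts (circles) and over protein-coding transcripts (squares), with SE bars, and from all transcripts with length offsets (triangles, no SE drawn). The NEDD4 value ranged from -0.57 to -0.07 and WWP2 crossed 0, while WWP1 stayed between 0.30 and 0.48.

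Transcript shares were tested for the members as for all genes, on the log2 ratio of a transcript to the rest of its gene. Of 24 member transcripts that held at least 5% of the TPM of a gene other than HECW2, 0 were called by limma, which needed a share difference over 5 percentage points and an adjusted p under 0.05, against 0.543% of all 42739 transcripts tested. At an unadjusted p under 0.05 there were 4, namely WWP2-204, WWP2-202, NEDD4-202 and WWP1-207, beside 5546 of the 42739 over all genes. Shares of 6 of the 24 did not overlap between groups, which compares with 19.8% of all transcripts. The lowest adjusted p among the 24 was 0.184. HECW1 was below the TPM minimum of this test.

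Levels can be compared between members only per length. By the TPM of protein-coding transcripts over all 6 libraries, the order of medians was WWP2 (15.2), NEDD4L (13.0), ITCH (11.8), SMURF1 (10.2), WWP1 (7.96), SMURF2 (5.79), NEDD4 (4.04), HECW2 (0.137) and HECW1 (0.0132). Neighbours in this order overlapped in range from WWP2 down to SMURF1, and again for WWP1 and SMURF2. The steps from SMURF1 to WWP1, from SMURF2 to NEDD4, from NEDD4 to HECW2 and from HECW2 to HECW1 were clear of overlap. On this scale HECW2 had 0.117, 0.121 and 0.153 TPM in shCtrl and 0.565, 0.231 and 0.107 TPM in shPCBP1. The value of shPCBP1 replicate 3 was thus below every control. In both groups HECW2 was far under the other members apart from HECW1. Counting all transcripts, NEDD4 moved to the top with 39.2 to 44.9 TPM, of which NEDD4-207 held 75.6% to 91.6% in the 6 libraries.

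**Figure D5:**
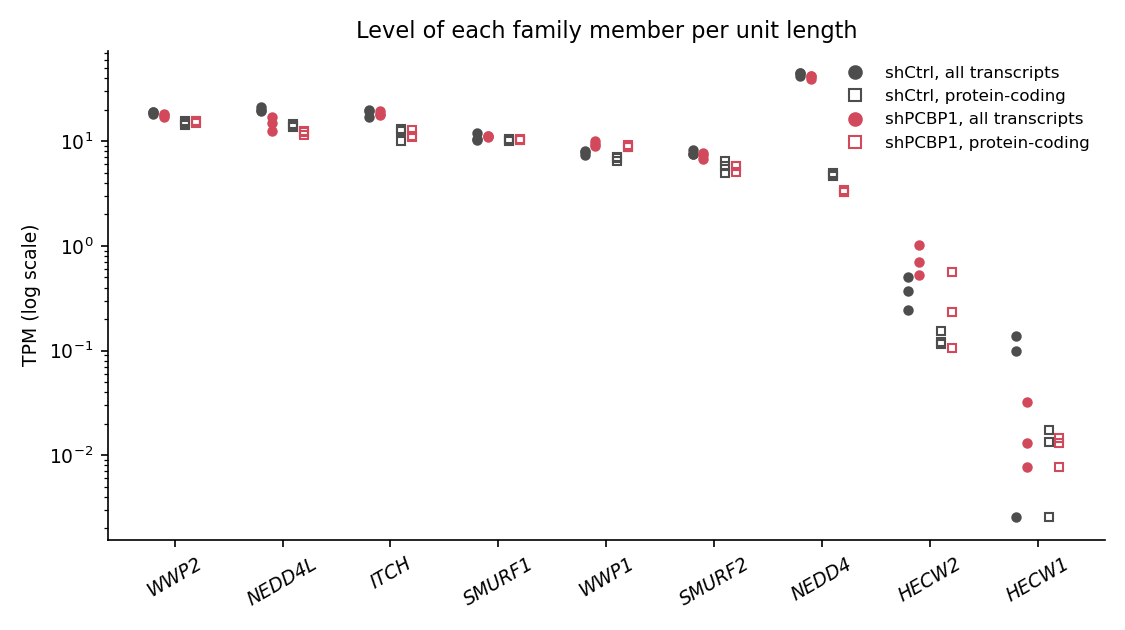
TPM on a log scale (y axis) of each member (x axis, ordered by protein-coding median). Filled circles are all transcripts, open squares protein-coding transcripts, grey shCtrl and red shPCBP1, with 1 point per library. NEDD4 is the member whose points separate most by transcript class, and HECW2 and HECW1 lie well below the others.

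The adaptors and regulators of the family recruit the ligases to targets or switch them on and off. Of 18 tested, 7 (38.9%) had an adjusted p under 0.05, 1 being higher and 6 lower in shPCBP1, beside 31.2% of all genes (17.7% higher and 13.5% lower), and the median log2 fold change was -0.07. LAPTM5, a lysosomal protein that binds NEDD4, had 1681, 2007 and 1524 normalized counts in shCtrl and 743, 1015 and 1023 in shPCBP1, a log2 fold change of -0.91 (SE 0.124, adjusted p 1.13e-11 by DESeq2). The arrestin-like adaptor ARRDC4 fell by 0.66 (SE 0.0999, adjusted p 1.37e-09) on that scale. WBP2, a WW-domain binding protein, rose by 0.14 (adjusted p 0.00250), and SMAD7, which brings SMURF ligases to the TGF-beta receptor, had a log2 fold change of 0.39 without passing (adjusted p 0.0763). The membrane adaptors NDFIP1 and NDFIP2 did not pass.

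Among the known substrates, 10 of 27 tested (37.0%) passed, 9 higher and 1 lower, beside 31.2% of all genes (17.7% higher and 13.5% lower), with a median log2 fold change of 0.06. SMAD3 had 3506, 3495 and 3512 normalized counts in shCtrl and 5018, 4981 and 4873 in shPCBP1, a log2 fold change of 0.50 (SE 0.0498, adjusted p 9.95e-22 by DESeq2). POLR2A, the large subunit of RNA polymerase II, rose by 0.49 (SE 0.0550, adjusted p 3.97e-17), and RAP1B, a small GTPase, fell by 0.12 (adjusted p 0.00433). JUN was at -0.08 without passing (adjusted p 0.218). These are RNA levels, and no protein or ubiquitination was measured.

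The substrates ascribed to HECW2 were looked at together after their values were seen. PCNA, the replication clamp, had 16840, 16664 and 17142 normalized counts in shCtrl and 21902, 20688 and 20361 in shPCBP1, a log2 fold change of 0.31 (SE 0.0384, adjusted p 1.72e-14 by DESeq2). AMOTL1 rose by 0.28 (SE 0.0354, adjusted p 9.41e-14) and TP73 by 0.44 (SE 0.121, adjusted p 0.00158). LMNB1, which encodes lamin B1, had a log2 fold change of 0.00480 (SE 0.0394, adjusted p 0.950).

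Upstream in the ubiquitin cascade, 5 of 11 E1 and E2 enzymes (45.5%) passed, 2 higher and 3 lower, beside 31.2% of all genes, with a median log2 fold change of 0.01. UBE2D1, an E2 of the UBCH5 class that loads HECT ligases, had 2256, 2077 and 2112 normalized counts in shCtrl and 1150, 1119 and 1246 in shPCBP1. UBE2D1 had a log2 fold change of -0.88 (SE 0.0796, adjusted p 5.77e-26 by DESeq2), whereas UBE2D2 (0.01, adjusted p 0.839) and UBE2D3 (0.07, adjusted p 0.172) did not pass. UBA1, the main ubiquitin-activating enzyme, fell by 0.44 (SE 0.0347, adjusted p 1.37e-33). UBE2L3, the E2 that works with HECT ligases in particular, rose by 0.19 (SE 0.0406, adjusted p 1.82e-05), and UBE2D4 rose by 0.41 (adjusted p 0.00750).

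HECT ligases outside the family supply a comparison of the same enzyme class. Over 19 gene records, 2 of which carry the symbol HERC3, 8 (42.1%) passed, 7 higher and 1 lower, beside 31.2% of all genes (17.7% higher and 13.5% lower), with a median log2 fold change of 0.08. HUWE1 rose by 0.30 (SE 0.0318, adjusted p 3.65e-19 by DESeq2) and UBE3B by 0.34 (SE 0.0593, adjusted p 2.26e-07), while AREL1 fell by 0.29 (SE 0.0515, adjusted p 2.21e-07). The larger HERC3 record was at -0.21 without passing (adjusted p 0.101). UBE3A, the Angelman syndrome ligase, had a log2 fold change of 0.02 (adjusted p 0.776). None of the genes in these 4 lists passed all thresholds.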

How the data were processed

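Poly-A RNA of K562 cells was sequenced in 6 libraries, 3 shCtrl and 3 shPCBP1, grouped by the sample labels. Per the labels, transcripts were quantified with Salmon (1.10.2). The deposited estimated counts are not normalized, and the deposited TPM and effective lengths were scaled by the authors' software. The index annotation is not given in the sources used here. Transcript IDs were matched without version to GENCODE release 44 (251612 of 252045), and unmatched ones (0.136% to 0.147% of counts) were left out.

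Estimated counts were summed per gene, rounded, filtered at a summed count of 10 and tested with DESeq2 1.42.0 (Wald test, two-sided, Benjamini-Hochberg). Transcript shares were tested with limma 3.58.1 on the log2 ratio of transcript TPM to the rest of the gene, with a pseudocount of 0.1 TPM, for genes of at least 0.5 TPM. Both tests were checked on simulated data. Alternatives included edgeR 4.0.16. Members and lists were chosen with earlier results of these data known. Genes named were all members, PCBP1, the 2 coding genes on each side of HECW2, the 3 most like it, and from each list up to 2 per direction by adjusted p, and others are said to be chosen after their values were seen, or are named by role. Libraries of a group differed by more than sampling noise (chi-square per degree of freedom 6.90 to 18.3).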

Additional observations from a re-analysis of the deposited data

How the results depend on the processing

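The alternatives were edgeR's quasi-likelihood test, TMM factors, length offsets, other count filters, protein-coding transcripts, a replicate block, other isoform pseudocounts and minimums, and leaving out each library. The log2 fold change of HECW2, given as a description, was 1.18 to 1.81 when libraries were left out and 1.03 with length offsets. Length offsets left 2 members and 1 neighbour of HECW2 with an adjusted p under 0.05, and turned WWP2 (-0.0613) and ITCH (-0.00561). Protein-coding transcripts also turned ITCH (-0.00783) and the NEDD4-202 share (1.08 points), and gave 37 genes called as higher.

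Same-numbered replicates did not deviate together (correlations 0.0130, 0.00453 and -0.0285). The labels do not say whether they were prepared together, and these correlations cannot decide it. With the replicate block 148 genes were called in place of 235, 41 higher and 107 lower, and 33 isoform shares in place of 232. Without a share minimum 89 shares were called.

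Leaving out 1 library gave 140 (without shCtrl replicate 2) to 249 genes called (without shPCBP1 replicate 3), 38 to 81 higher and 91 to 199 lower, 110 to 162 isoform shares, 1 to 2 neighbours of HECW2 and 4 of 4 members. ITCH ranged from -0.00584 to 0.0520 on the log2 scale. Share differences that changed sign ranged, in points, from -1.24 to 5.33 (NEDD4-207), -2.85 to 3.07 (NEDD4-212), -2.75 to 0.39 (SMURF2-201), -5.67 to 2.19 (SMURF2-203), -1.46 to 7.48 (SMURF2-207), -6.57 to 1.05 (NEDD4L-261), -1.12 to 7.09 (ITCH-205) and -2.54 to 1.22 (ITCH-213). The cause of these shifts was not tested. Depth limits HECW1 and the HECW2 transcripts.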
